A study of Drosophila melanogaster with 3 samples.

Results

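The genes described are 10 Polycomb group genes of Drosophila melanogaster, ph-p, ph-d, Pc, Psc, Su(z)2, Sce, E(z), Su(z)12, esc and pho, out of 13968 protein-coding genes on the assembled chromosomes of the annotation. They were taken by name from the Ensembl annotation, and a region was counted for a gene when its summit, the point of highest signal, lay inside the gene or within 2000 bp of it. It was a promoter region when the summit lay within 500 bp of a transcription start site of that gene. The regions come from chromatin immunoprecipitation followed by sequencing (ChIP-seq) in 3 biological replicates of whole embryos, of pooled sex and 0 to 24 h old. All were from a stable transgenic fly line expressing the CG3838 protein (gene brwl) with green fluorescent protein at its C-terminal end, precipitated with an antibody against that tag, though the antibody label names CG3838 itself. No other genotype, stage or treatment was included, the promoter driving the transgene is not given in the sources used here, and whole embryos mix all cell types. Binding was therefore compared between genes and between replicates only.

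Polycomb group proteins keep developmental genes silent once they have been switched off, and are best known in the fly for holding homeotic genes off outside their segments. Polycomb repressive complex 2 (PRC2) methylates histone H3, PRC1 binds chromatin carrying that mark and ubiquitylates histone H2A, and the Pho repressive complex (PhoRC) recognises DNA. In flies these complexes gather at Polycomb response elements, and some Polycomb group genes lie near such elements themselves.

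The sequences below are windows of 201 bp centred on summits, taken from the RefSeq sequence of dm6 and written in the direction of transcription of the gene, which for all of them is the reverse strand. They are the 2 peaks in the introns of ph-p, the peak upstream of ph-d, and the promoter regions of Pc and pho, which fell just under the authors' threshold. Peaks lying in 5' untranslated sequence, at E(z), Su(z)12 and the first exon of ph-p, are described without their sequence.
ph-p, strongest peak, chrX:2137225-2137425: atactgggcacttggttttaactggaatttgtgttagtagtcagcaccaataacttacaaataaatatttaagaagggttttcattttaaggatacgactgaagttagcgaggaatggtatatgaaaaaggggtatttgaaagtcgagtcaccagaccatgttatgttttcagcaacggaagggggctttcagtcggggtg
ph-p, intron peak, chrX:2135354-2135554: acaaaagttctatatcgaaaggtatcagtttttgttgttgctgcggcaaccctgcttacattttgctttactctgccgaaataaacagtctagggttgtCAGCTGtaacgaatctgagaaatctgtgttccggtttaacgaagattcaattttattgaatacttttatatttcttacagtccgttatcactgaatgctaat
ph-d, upstream peak, chrX:2123960-2124160: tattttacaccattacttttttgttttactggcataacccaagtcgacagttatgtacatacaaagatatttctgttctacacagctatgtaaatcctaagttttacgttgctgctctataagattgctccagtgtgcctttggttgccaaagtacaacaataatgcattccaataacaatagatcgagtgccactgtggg
Pc, promoter region, chr3L:21318047-21318247: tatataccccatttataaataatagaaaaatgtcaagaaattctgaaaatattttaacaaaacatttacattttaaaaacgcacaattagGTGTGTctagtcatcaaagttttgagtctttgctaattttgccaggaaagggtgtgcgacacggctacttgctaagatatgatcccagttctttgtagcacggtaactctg
pho, promoter region, chr4:1181727-1181927: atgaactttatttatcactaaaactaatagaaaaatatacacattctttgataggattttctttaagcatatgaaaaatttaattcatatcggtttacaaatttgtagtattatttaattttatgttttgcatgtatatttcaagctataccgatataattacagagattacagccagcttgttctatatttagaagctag

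Capitals mark matches, on either strand, to 6 short words: the DNA replication-related element TATCGATA, the Pho core GCCAT, the GAGA word GAGAG, the E-box words CAGCTG and CACGTG, and GTGTGT, a word bound by Combgap. The intron peak of ph-p held CAGCTG starting 1 bp before the summit, and the Pc window held GTGTGT starting 10 bp before it. No word was found in the strongest ph-p window, the ph-d window or the pho window. Of the windows not printed, GTGTGT was also in that of the 5' untranslated ph-p peak, starting 86 bp before the summit. The window of the esc promoter region held it too, starting 63 bp before the summit. Among all 2239 thresholded peaks, windows of the same length held CAGCTG in 9.1%, CACGTG in 2.3%, GTGTGT in 14.6%, GCCAT in 26.9%, GAGAG in 25.3% and TATCGATA in 3.9%. Among windows of that length centred on the outermost start site of 13945 protein-coding genes the shares were 13.8%, 2.9%, 11.5%, 31.8%, 22.5% and 7.8%. The Pho core, the word recognised by the product of pho, was in none of the windows printed. GC content was 39.3% and 35.8% in the ph-p windows, 36.8% at ph-d, 33.3% at Pc and 23.9% at pho, beside a median of 35.8% over all thresholded peaks with quartiles at 31.8% and 41.3%.

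Of the 2239 peaks in the authors' thresholded list on dm6, 8 had their summit in the windows of these genes. They lay at ph-p (3 peaks), ph-d, Pc, Psc, E(z) and Su(z)12, and 4 of them were promoter peaks. Su(z)2, Sce, esc and pho had no peak. The peak counted for Pc lay past its end, at promoters of the neighbours CG7632 and CG11309. All 8 carried the highest −log10 q value of the list, 3.53, so the signal, the authors' own value on a scale that is not described, was used to rank them. Their signals ran from 127.0 to 712.5 in a list whose lowest value was 103.5 and whose median was 148.5.

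A promoter peak was present at 3 of the 10 genes, ph-p, E(z) and Su(z)12, beside 11.6% of all protein-coding genes. With the gene and 2000 bp on each side as the window, 6 of the 10 had a peak, beside 21.3% of protein-coding genes. Long genes have wider windows, and the median length of these 10 genes was 8360 bp, compared with 2164.5 bp for all. Among the 2250 protein-coding genes of at least 8360 bp, 37.2% had a peak in that window. That set is not matched in length, since some of the 10 genes, such as E(z) at 3556 bp, are shorter. When a peak had to be overlapped by one of the 2239 strongest regions of every replicate, a peak remained in the window of 3 genes, ph-p, E(z) and Pc, beside 12.9% of protein-coding genes. The count was also 3 when support was asked only of replicates 1 and 3, without replicate 2, beside 14.6%. Among the 500 strongest peaks the same 3 genes had one in the window, beside 5.96%. The window set the count as well, since the peaks of ph-d and Pc lay outside the genes. Inside the gene alone 4 of 10 had a peak, ph-p, Psc, E(z) and Su(z)12, beside 7.04%, and with 5000 bp on each side 7 of 10, Su(z)2 being added, beside 30.6%. With 10 genes and 1 group of samples no test was made of these shares.

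**Figure D1:**
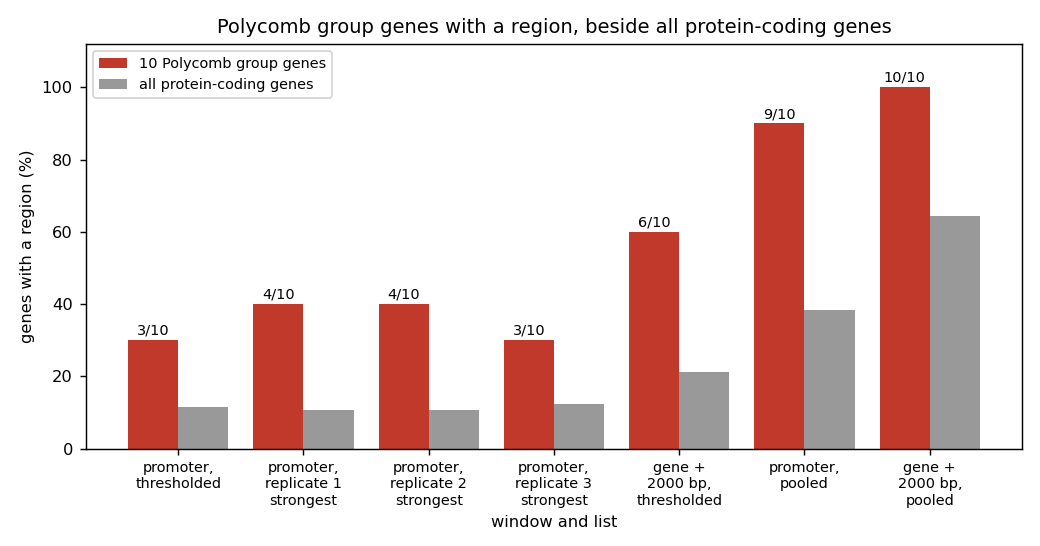
Percentage of genes with a region, for the 10 Polycomb group genes (red, with counts) and all protein-coding genes (grey), by window and list; promoter means within 500 bp of a start site, and strongest means the 2239 strongest regions of a replicate. The red bar is 30% for thresholded promoter peaks, beside 11.6%, and 90% for pooled promoter regions, beside 38.3%.

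The replicates gave similar counts. Among the 2239 strongest regions of each replicate, the promoters of 4, 4 and 3 of the 10 genes held one in replicates 1, 2 and 3, a mean of 3.67 ± 0.577 (SD, n = 3). The background shares of protein-coding genes were 10.8%, 10.8% and 12.3% in the same order. The genes were not the same in each: ph-p and E(z) were present in all 3, Su(z)12 in replicates 2 and 3, pho in replicates 1 and 2, and Su(z)2 in replicate 1. In the gene and 2000 bp window the counts were 6, 7 and 5, a mean of 6.0 ± 1.0 (SD, n = 3), beside 20.5%, 20.5% and 22.0%. Replicate 3 held 25 mitochondrial regions, all of them among its 2239 strongest, and leaving them out left the mean of promoter counts at 3.67.

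Regions under the threshold were found at nearly all of the genes, in lists that hold peaks together with background. The pooled list, called on the 3 replicates together, had a promoter region at 9 of 10 genes, beside 38.3% of protein-coding genes, and a region in the gene and 2000 bp window at 10 of 10, beside 64.3%. The whole lists of replicates 1, 2 and 3 each had a promoter region at 9 of 10, beside 42.6%, 49.1% and 43.9%. The 1 gene without a promoter region in any list was Sce. Where the strongest pooled promoter region was under the threshold, its −log10 q was 2.16 at Pc, 1.97 at pho, 1.54 at Su(z)2, 1.26 at ph-d, 0.46 at esc and 0.19 at Psc. The pooled regions at Sce had values of 0.04 to 0.21. A region in this list is therefore not by itself a bound site. In all, 37 pooled regions fell in the windows, of which 13 were promoter regions. By position, 8 lay in 5' untranslated sequence, 9 in introns, 5 in coding exons, 1 in 3' untranslated sequence and 14 outside the gene. Pooled regions per kb of window were above the median of all protein-coding genes, 0.15, for 9 of the 10 genes. They were above the 90th percentile, 0.42, for Sce (0.714), ph-p (0.495), Su(z)2 (0.454) and Su(z)12 (0.434), with E(z) at 0.132 the lowest. This density counts regions of any signal and is not a measure of binding strength. The Sce regions overlapped in pairs, with signals of 42.0 to 52.3 beside 40.2, the lowest of the list, whereas E(z) had a thresholded peak.

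**Figure D2:**
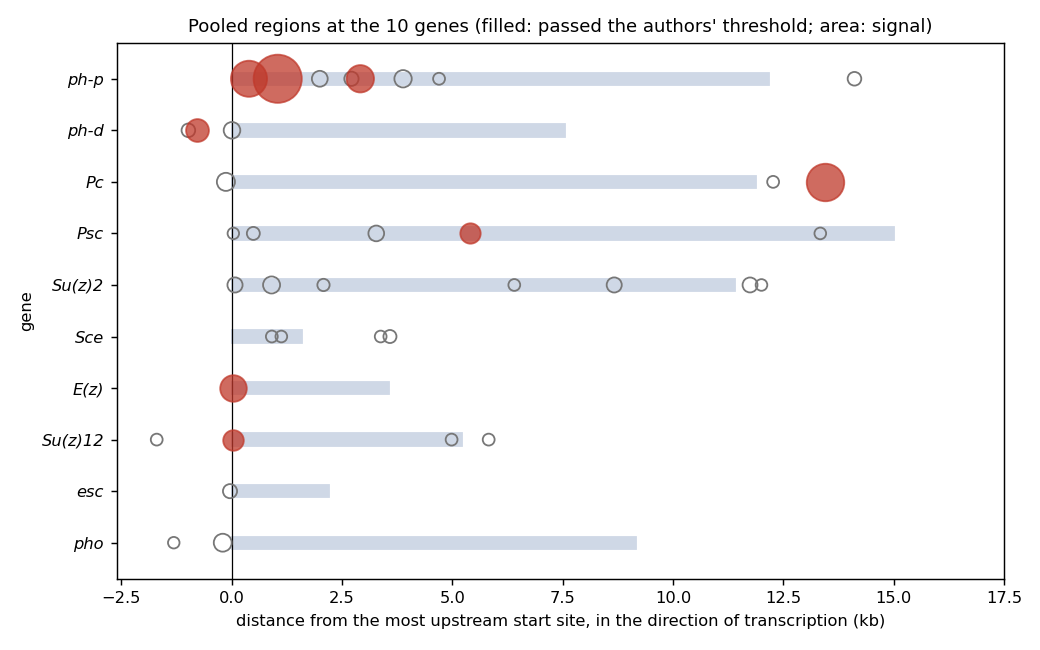
Pooled regions at each gene, placed by distance in kb from its most upstream start site along the direction of transcription; the bar is the gene, the area of a circle its signal, and filled circles passed the authors' threshold. Large filled circles sit at the 5' end of ph-p (712.5 and 400.0) and past the 3' end of Pc (432.2), and Sce has no circle within 500 bp of its start site.

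The PRC1 subunit gene ph-p (polyhomeotic proximal, FBgn0004861) carried the strongest of these peaks. It lies on X from 2126210 to 2138371 on the reverse strand, with start sites at 2138371, 2136855 and 2136622, and its product is a SAM domain protein that lets PRC1 assemble into larger clusters. The peak with its summit at 2137325 had a signal of 712.5 and ranked 30 of 2239, and 23 among the 1625 protein-coding genes with a promoter peak, whose median signal was 156.3. It lay 470 bp upstream of the start site at 2136855 and within an intron of the longer transcript. In replicates 1, 2 and 3 the region had signals of 208.5, 315.6 and 208.5 and ranks of 28, 25 and 51. It was thus among the strongest 51 regions of every replicate, and its replicate summits at 2137330, 2137335 and 2137341 had an SD of 5.5 bp (n = 3).

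A pair of further peaks flanked it. The summit at 2137975 (signal 400.0, rank 131) lay 396 bp downstream of the outermost start site, in 5' untranslated sequence. Its signals in replicates 1, 2 and 3 were 160.7, 146.5 and 120.4, with ranks of 56, 155 and 169. The intron summit at 2135454 (signal 230.0, rank 418) lay 1168 bp downstream of the nearest start site, with replicate signals of 63.0, 95.2 and 83.3 and ranks of 523, 410 and 379. The order of the 3 peaks by signal was the same in every replicate. Of all protein-coding genes, 1.21% (169 genes) had 3 or more peaks in the window. The cut of 3 was the count of ph-p itself. The share is not matched for gene length, and ph-p spans 12162 bp, beside a median of 2164.5 bp. In the pooled list ph-p had 5 weaker regions beside these, with signals of 43.5 to 92.3.

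Its tandem copy ph-d (polyhomeotic distal, FBgn0004860, X from 2115727 to 2123286, reverse strand), which encodes a closely related PRC1 subunit, had 1 thresholded peak. The summit, at 2124060 between the genes, lay 774 bp upstream of the ph-d start site and 2150 bp past the end of ph-p, with a signal of 159.8 and rank 961. Replicates 1, 2 and 3 gave signals of 24.1, 75.8 and 64.7 and ranks of 4044, 681 and 699. Replicate 1 was therefore the low one, and only in it was the region outside the strongest 2239. At the start site of ph-d itself the pooled list had a weaker region, 11 bp downstream, with a signal of 84.5 and rank 3231. Its ranks in the replicates were 4432, 3063 and 4734.

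**Figure D3:**
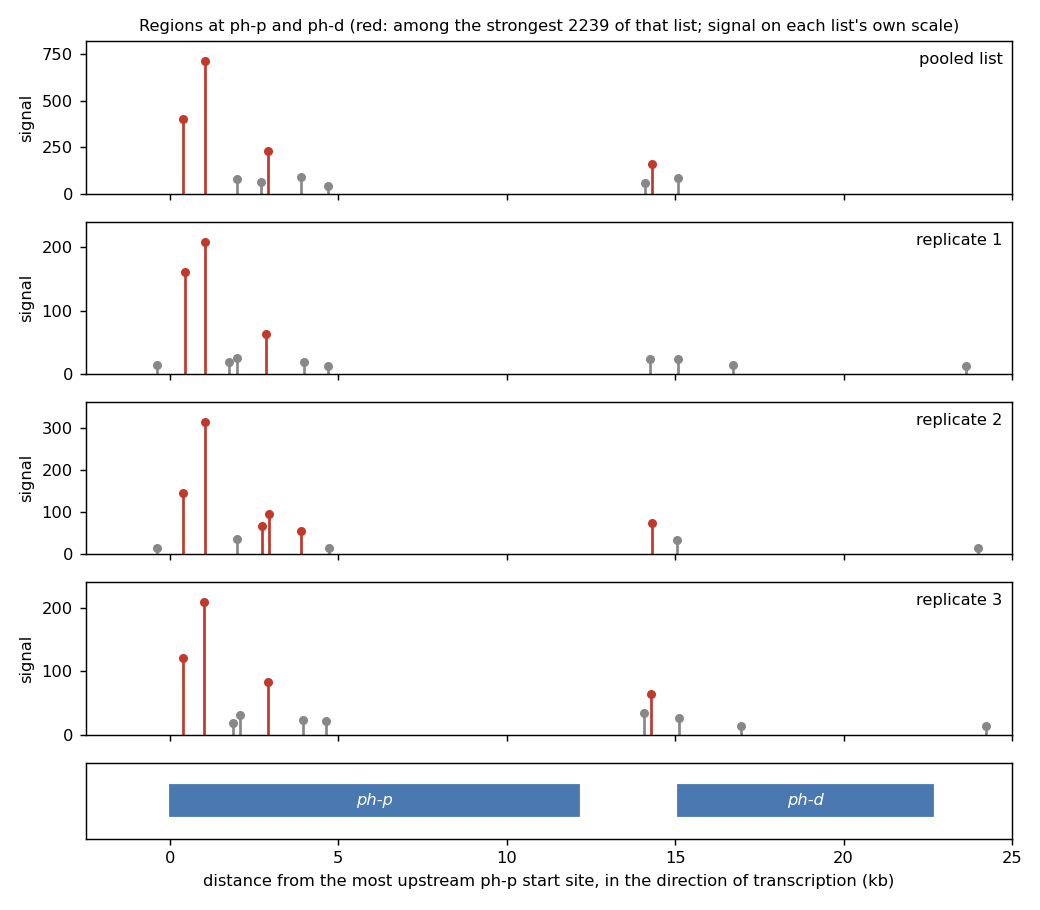
Signal of each region at ph-p and ph-d against distance from the outermost ph-p start site in kb, in the pooled list and in each replicate, each on its own scale; red marks the 2239 strongest regions of that list and the boxes are the genes. The 3 ph-p peaks are red in every panel, and the region upstream of ph-d is grey in replicate 1.

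Because ph-p and ph-d arose by duplication, the windows were compared between the copies. None of the 152 sequences of 50 bp in any of their 4 windows occurred elsewhere on the arms, so sequences of that length tell the copies apart. The read length is not given in the sources used here. The best local alignment of the 5' untranslated ph-p window to the ph-d locus covered 139 columns with 82.0% identity, at X 2124246 to 2124380. That stretch holds the summit of a weak pooled region, at 2124263 with a signal of 57.0 and rank 6862. It also overlaps the end of the thresholded ph-d peak, which reaches 2124271. The window of the ph-d peak aligned over 90 columns with 75.6% identity to X 2137766 to 2137855, between the 2 strongest ph-p summits. This second stretch is inside the 5' untranslated ph-p peak, which spans 2137740 to 2138086. The strongest ph-p window aligned over only 40 columns, and the intron window over 16. The strongest peak was thus at a sequence with a short match only in the other copy.

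Pc (Polycomb, FBgn0003042), whose chromodomain protein reads methylated histone H3 for PRC1, lies on 3L from 21306138 to 21318020, reverse strand. Its promoter region had its summit 127 bp upstream of the start site, with a pooled signal of 100.3 and rank 2374, under the lowest thresholded signal of 103.5. Replicates 1, 2 and 3 gave 27.7, 33.2 and 36.6 with ranks of 2921, 3423 and 2325. No replicate had it among its strongest 2239. The thresholded peak counted for Pc was at the other end, 1549 bp past the gene, with its summit at 21304589, a signal of 432.2 and rank 102. That summit was within 500 bp of start sites of CG7632 and CG11309, so it is a promoter peak of these neighbours. Its replicate signals were 107.0, 160.6 and 167.3, with ranks of 155, 133 and 82.

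Psc and Su(z)2 encode related RING finger proteins, alternative subunits of PRC1, and lie side by side on 2R. Psc (FBgn0005624, 12965997 to 12980994, reverse strand) had 1 thresholded peak, in an intron 5057 bp downstream of the nearest start site, with a signal of 127.0 and rank 1505. Its replicate signals were 43.1, 56.9 and 29.5 with ranks of 1142, 1208 and 3634. Here replicate 3 was the low one and fell outside the strongest 2239. The best promoter region of Psc in the pooled list ranked 8538 with a signal of 51.6, and in the replicates 4071, 2471 and 4191.

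Su(z)2 (FBgn0265623, 12996501 to 13007911, forward strand) had no thresholded peak but 7 pooled regions. The strongest of them, 285 bp downstream of its inner start site at 12997123, had a signal of 88.9 and rank 2934. The strongest promoter regions of replicates 1, 2 and 3 ranked 2094, 2917 and 3065. In replicate 1 an intron region 7886 bp from the nearest start site was stronger still, with a signal of 46.4 and rank 979. No other replicate had a Su(z)2 region among its strongest 2239.

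The sequence between the genes held a stronger peak than any region counted for either, and another that was weaker than the Psc peak. In the 15506 bp that separate Psc from Su(z)2 there were 2 thresholded peaks, both beyond 2000 bp from the genes and so not counted for them. The summit at 12985152 on 2R, 4158 bp upstream of Psc and within 500 bp of a start site of the non-coding gene lncRNA:CR44339, had a signal of 439.0 and rank 99. Its signals in replicates 1, 2 and 3 were 75.1, 131.7 and 224.4, with ranks of 342, 198 and 47. The summit at 12991689, 4812 bp upstream of Su(z)2, had a signal of 116.6 and rank 1802, with replicate ranks of 2343, 1964 and 1387. Both were described after their values were seen.

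Sce (FBgn0003330, 3R from 27680431 to 27682029, reverse strand), which encodes the RING finger ubiquitin ligase of PRC1, had the lowest best signal of the 10 genes. Its 4 pooled regions had signals of 42.0 to 52.3 and ranks of 8309 to 13967, and the nearest to the start site was 913 bp downstream, in coding sequence. The best rank in the window was 9706 in replicate 1 and 9439 in replicate 3, and replicate 2 had no region there. Depth is unknown, so a weak promoter region at Sce was not detectable in these lists rather than shown to be absent.

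The PRC2 gene E(z) (FBgn0000629, 3L from 10634575 to 10638130, reverse strand), which encodes the histone methyltransferase, had 1 peak. Its summit at 10638087 lay 43 bp downstream of the outer start site, in 5' untranslated sequence, with a signal of 216.7 and rank 476. Replicates 1, 2 and 3 gave signals of 32.4, 76.1 and 105.4 and ranks of 2057, 673 and 218. The replicates differed widely, and replicate 1 placed it just inside its strongest 2239. The start site of Cnep1r2 lies 16 bp away on the other strand, so the peak is shared with that gene. The window held 1 GAGAG, 71 bp before the summit.

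Su(z)12 (FBgn0020887, 3L from 19918242 to 19923462, reverse strand), which encodes a zinc finger subunit needed for the enzyme's activity, had its peak 38 bp downstream of the start site. The signal was 129.9 and the rank 1428. Replicates 1, 2 and 3 gave 26.9, 55.2 and 45.9, with ranks of 3132, 1296 and 1453. As at ph-d, replicate 1 was the one outside the strongest 2239. This peak too is shared, with Pfdn6, a prefoldin subunit gene that starts 209 bp away on the other strand.

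The third PRC2 gene, esc (FBgn0000588, 2L from 11827204 to 11829405, reverse strand), encodes a WD40 protein that binds the methylated histone tail. It had 1 pooled region, 34 bp upstream of the start site, with a signal of 61.2 and rank 5939. Its ranks in the replicates were 7085, 4989 and 4901. None of the lists placed it near the strongest 2239.

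In PhoRC, pho (FBgn0002521, chromosome 4 from 1172469 to 1181628, reverse strand) encodes the zinc finger protein that binds DNA in Polycomb response elements. Its promoter region, 199 bp upstream of the start site, had a pooled signal of 98.4 and rank 2459, under the threshold. Replicates 1, 2 and 3 gave signals of 32.9, 45.0 and 20.5 and ranks of 1979, 1937 and 8087. It was therefore among the strongest regions of 2 replicates and far down the list of replicate 3.

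**Figure D4:**
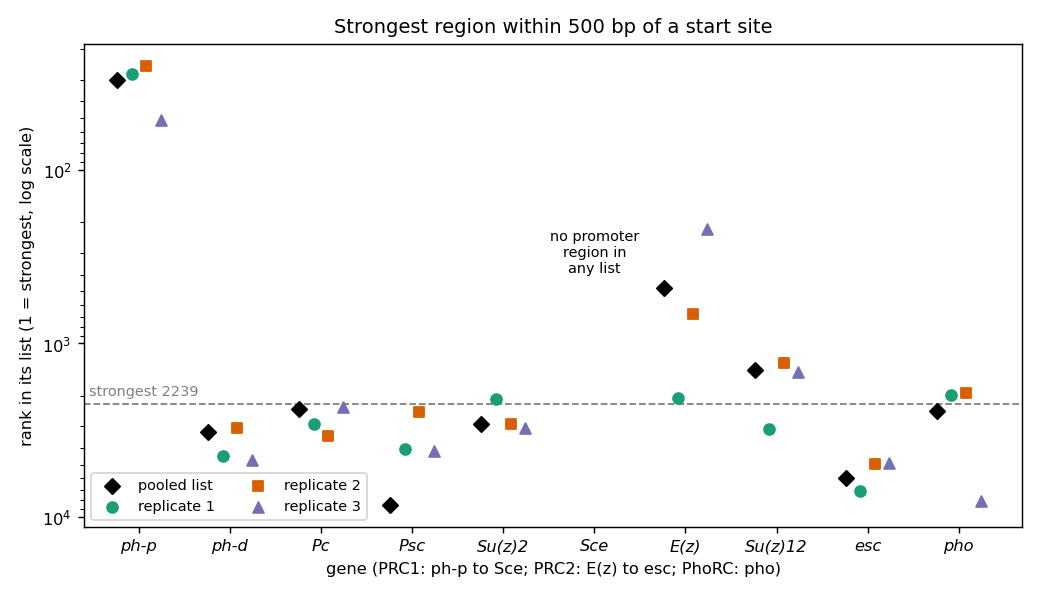
Rank of the strongest region within 500 bp of a start site of each gene (log scale, 1 at the top) in the pooled list and each replicate; the dashed line is rank 2239. ph-p stands between ranks 25 and 51 in every list, most other genes lie near or below the line, and Sce has no point.

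The 8 peaks were unevenly supported by the replicates. A region overlapped each of them in all 3 replicates, and 5 of the 8 were among the strongest 2239 of every replicate. These 5 were the ph-p peaks and those at E(z) and past Pc. Of all thresholded peaks 54.6% were among the strongest 2239 of every replicate. With 8 peaks, 3 of them at ph-p, no difference from that share was tested. The SD of the replicates' summit positions ran from 5.5 bp at the strongest ph-p peak to 46.3 bp at Psc.

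**Figure D5:**
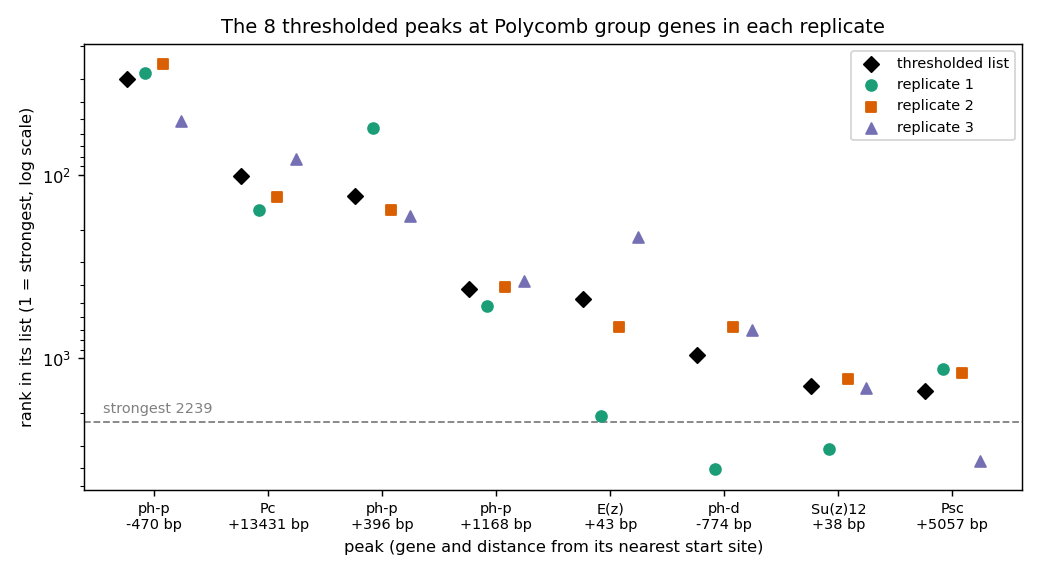
Rank of each of the 8 thresholded peaks at the Polycomb group genes in the thresholded list and in the replicates (log scale, 1 at the top), labelled by gene and distance from its nearest start site. The points of the strongest ph-p peak lie between 25 and 51, while those of ph-d spread from 681 to 4044 and those of E(z) from 218 to 2057.

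Further genes of the pathway were read in the same way. Of 18 other Polycomb group and partner genes, 4 had a promoter peak (22.2%), beside 11.6% of protein-coding genes, and 11 had a peak in the gene and 2000 bp window (61.1%), beside 21.3%. The 4 were Asx (signal 125.4, rank 1557), part of the deubiquitinase complex that acts on histone H2A, Sfmbt (121.9, rank 1653), the partner of Pho in PhoRC, lolal (109.7, rank 2006), which encodes a BTB domain protein, and jing (104.9, rank 2178), a zinc finger gene. All had signals under the median of the list, 148.5. The strongest 2239 regions of replicates 1, 2 and 3 held 5, 3 and 2 of the 18 promoters, or 27.8%, 16.7% and 11.1%, beside 10.8%, 10.8% and 12.3% of all protein-coding genes. The share in replicate 3 was thus close to that of all genes. Of 9 genes of DNA-binding proteins linked to recruitment of Polycomb complexes, 1, Adf1 (118.0, rank 1752), had a promoter peak (11.1%), beside the same 11.6%. In the wider window 6 had a peak (66.7%), beside 21.3%. The window shares of both lists are not matched for gene length. The strongest regions of replicates 1, 2 and 3 held 3, 3 and 2 of these 9 promoters, or 33.3%, 33.3% and 22.2%, beside the same 10.8%, 10.8% and 12.3%.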

How the data were processed

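ChIP-seq was done on 3 replicates of 1 group. Per the file headers in the READMEs, the authors derived a list of peaks with background from each replicate and 1 from the pooled replicates, each against a control, and from these lists a list thresholded by the irreproducible discovery rate (IDR). The signal per region and the −log10 q value are as deposited. Caller, aligner, threshold and read length: not given in the sources used here. Depth is unknown, as the lists carry no read counts. The thresholded list held 2239 of 15592 pooled regions, the strongest 2239; the replicate lists held 30000, 30000 and 21147.

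Summits on dm6 were placed with Ensembl release 115, and all 10 genes had the same span in the RefSeq table of the same assembly. The dm3 lists were not used here. Ranks are by signal within a list. To compare replicates, the 2239 strongest regions of each were taken, and an overlap of at least 1 bp counted as shared. Protein-coding genes on the arms and Y gave the background. Python 3.11.15 and pandas 2.3.3 were used, Biopython 1.88 for alignments, and the placing was tested on simulated summits. No significance test was made, since there is 1 group, and replicates share 1 control.

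The 10 genes and the lists were chosen with earlier results of these data known. All 10 genes are named, and of the other lists every gene with a promoter peak, up to 8 of each. Alternatives covered the windows, a stricter threshold, support by replicates and the number of regions taken.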

Additional observations from a re-analysis of the deposited data

How the results depend on the processing

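Of 38 alternative values for 6 results, 25 stayed within 1.5 times the count, or, for the mean over replicates, within 1 SD; shares of all protein-coding genes follow in brackets. With a promoter window of 250 bp, 2 promoter peaks were left instead of 4, since both ph-p summits lie beyond it, and the mean of promoter counts over replicates fell from 3.67 to 2.33 (8.94%); with 1000 bp that mean was 4.33 (13.1%). Inside the gene alone 4 genes (7.04%) and 6 peaks were counted, and with 5000 bp on each side 7 genes (30.6%) and 11 peaks. With the 500 strongest peaks, 3 genes had a peak in the window instead of 6 (5.96%), and 5 peaks were left instead of 8. Peaks overlapped by a strongest region of every replicate gave 3 genes (12.9%) and 5 peaks, or 3 genes (12.5%) and 4 peaks when 50% of a peak had to be covered. With the 500 strongest regions of each replicate the mean of promoter counts was 1.33 (3.00%), and with whole lists 9.0 (45.2%). Each replicate was also left out in turn. The thresholded list itself was not remade, so a peak was kept when a strongest region of both other replicates overlapped it. This gave 2 to 3 genes with a promoter peak (7.67% to 7.93%), 3 to 5 genes with a peak in the window (14.6% to 15.5%) and 5 to 7 peaks. The lowest window and peak counts, without replicate 2, equalled those with support from every replicate. Means of promoter counts over the remaining replicates were 3.5 to 4.0 (10.8% to 11.5%). Fewer regions enter under the stricter settings by construction. No paired analysis was possible because there is 1 group. Signal from open chromatin or from the antibody was not tested, as no line without the tag was used.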

Other observations

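Classical targets of Polycomb repression, 36 homeotic, segmentation and other developmental genes, were read in the same way. Promoter peaks were present at 2 of the 36 (5.6%), beside 11.6% of protein-coding genes: hth (signal 224.4, rank 439), which encodes a homeodomain cofactor of the Hox proteins, and bab2 (197.2, rank 600), which encodes a BTB domain transcription factor; neither promoter was among the strongest 2239 regions of replicate 3. In the gene and 2000 bp window 9 of 36 had a peak (25%), beside 21.3%, and these were Ubx, Abd-B, Antp, inv, dac, bab1, bab2, tup and hth. This window share, too, is not matched for gene length. The pooled list held a promoter region at 10 of 36 (27.8%), beside 38.3%. The strongest 2239 regions of replicates 1, 2 and 3 held 2, 2 and 1 of their 36 promoters, or 5.6%, 5.6% and 2.8%, beside 10.8%, 10.8% and 12.3%. No test was made of these counts.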
